A study of Arabidopsis thaliana with 8 samples.

Results

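The 46 Arabidopsis thaliana genes described here are those whose signal moved furthest up the order of features in the psah2k double mutant, compared with the wild type (WT). On each array the features were ranked by intensity, and a rank was given as a percentile from the dimmest to the brightest of 3439 features, with ties averaged. Of the 692 features assigned to exactly 1 gene, 252 had a signal above 0 on the 4 psah2k arrays and on at least 3 WT arrays and had a WT mean percentile of at most 85. The 50 with the largest rise, the psah2k mean percentile minus the WT mean percentile, were taken. From these, 4 genes were then left out (AT2G04700, SRX, NTRC and LPA19), since the list was defined without 11 named plastid genes. The same arrays chose the genes, so the ranks and intensities below are a description of them and carry no test.

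The samples came from the psah2k double mutant in ecotype Columbia 0 and from WT of the same ecotype. RNA of 4 samples per genotype, numbered 1 to 4, was hybridised to 1-channel arrays. The labels do not settle which proteins the mutant lacks, since its name refers to photosystem I subunits H and K and the accompanying note to E1 and K. The array had 0 features assigned to subunits E, H or K alone, so the genotype could not be checked here from these transcripts. The sources used here do not give the organ, the age, the growth conditions or the alleles. They also do not say whether the numbered samples were different plants. In whole-tissue RNA, fewer cells of a type and less RNA per cell cannot be told apart.

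Photosystem I is the complex of the thylakoid membrane that takes electrons from plastocyanin and passes them to ferredoxin. Subunit H sits where light-harvesting complex II docks during state transitions, and subunit K lies beside the antenna on the other side of the complex. Most proteins of the chloroplast are encoded in the nucleus, made in the cytosol and imported. Transcripts of such genes can therefore move with the state of the organelle. A percentile rank says where a transcript stands among all features of its own array, and it does not change when an array as a whole is brighter or dimmer.

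That property matters here because the arrays of the genotypes differed as a whole. The array median of the deposited intensity, values of 0 included, was 0.0544 ± 0.00338 in psah2k and 0.320 ± 0.0176 in WT (SD, n = 4 each). Between 739 and 1014 features were listed at 0 on a psah2k array, against 448 to 472 on a WT array. An intensity of 0.2 stood above 75.9% ± 0.613 of the features of a psah2k array and above 33.9% ± 1.74 of those of a WT array (SD, n = 4 each). A feature with an intensity near 0.2 on all arrays thus had a much higher percentile in psah2k with no change in its deposited intensity. An intensity of 0.1 stood above 63.1% of features in psah2k and above 20.5% in WT, and an intensity of 0.4 above 85.1% and 58.7%. The part of this shift in each rank rise was not tested, and the deposited intensities are given beside the ranks for that reason.

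**Figure D1:**
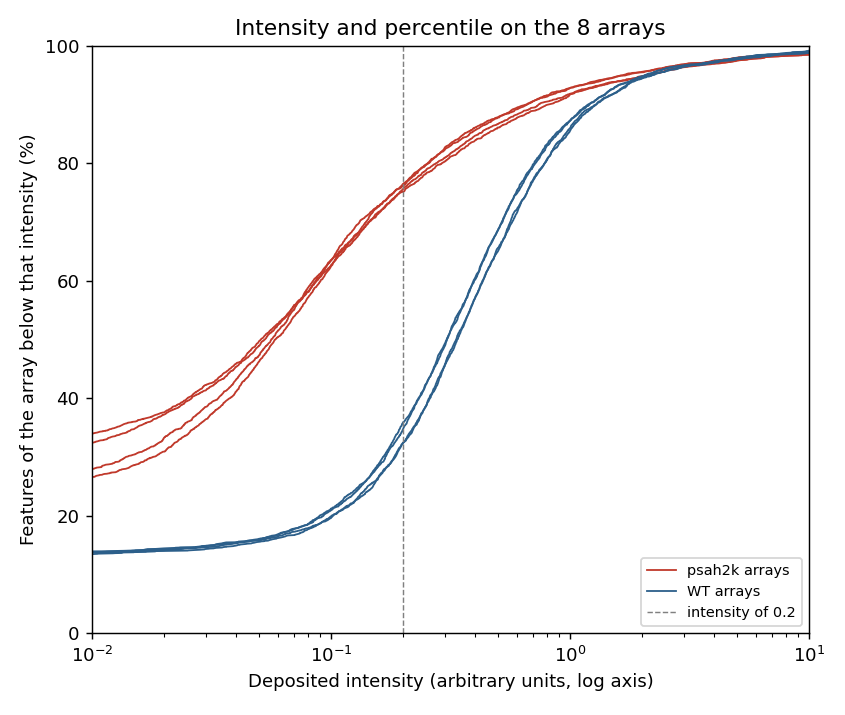
Share of the features of each array (vertical axis, %) below a given deposited intensity (horizontal axis, arbitrary units, log scale), with a line for each of the 4 psah2k and 4 WT arrays. At an intensity of 0.2 (dashed) the psah2k lines lie between 75.2% and 76.5% and the WT lines between 32.5% and 36.0%.

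The rises of the 46 genes ranged between 22.9 and 56.9 percentile points, with a median of 28.5. Over the 2353 features that could be tested (above 0 on at least 3 arrays of each genotype) the median rise was 1.90, and over the 252 features that met the conditions it was 5.91. The gene means lay between the percentiles of 44.3 and 91.3 in psah2k, with a median of 69.6, and between 16.4 and 67.7 in WT, with a median of 34.3. On 43 of the 46 genes every psah2k percentile was above every WT percentile, as was the case for 31.2% of tested features. The exceptions were AT5G19940, AT1G62250 and AT2G21960, each with 1 psah2k array among the WT values. Since ranks chose the genes, nothing is read from that count.

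**Figure D2:**
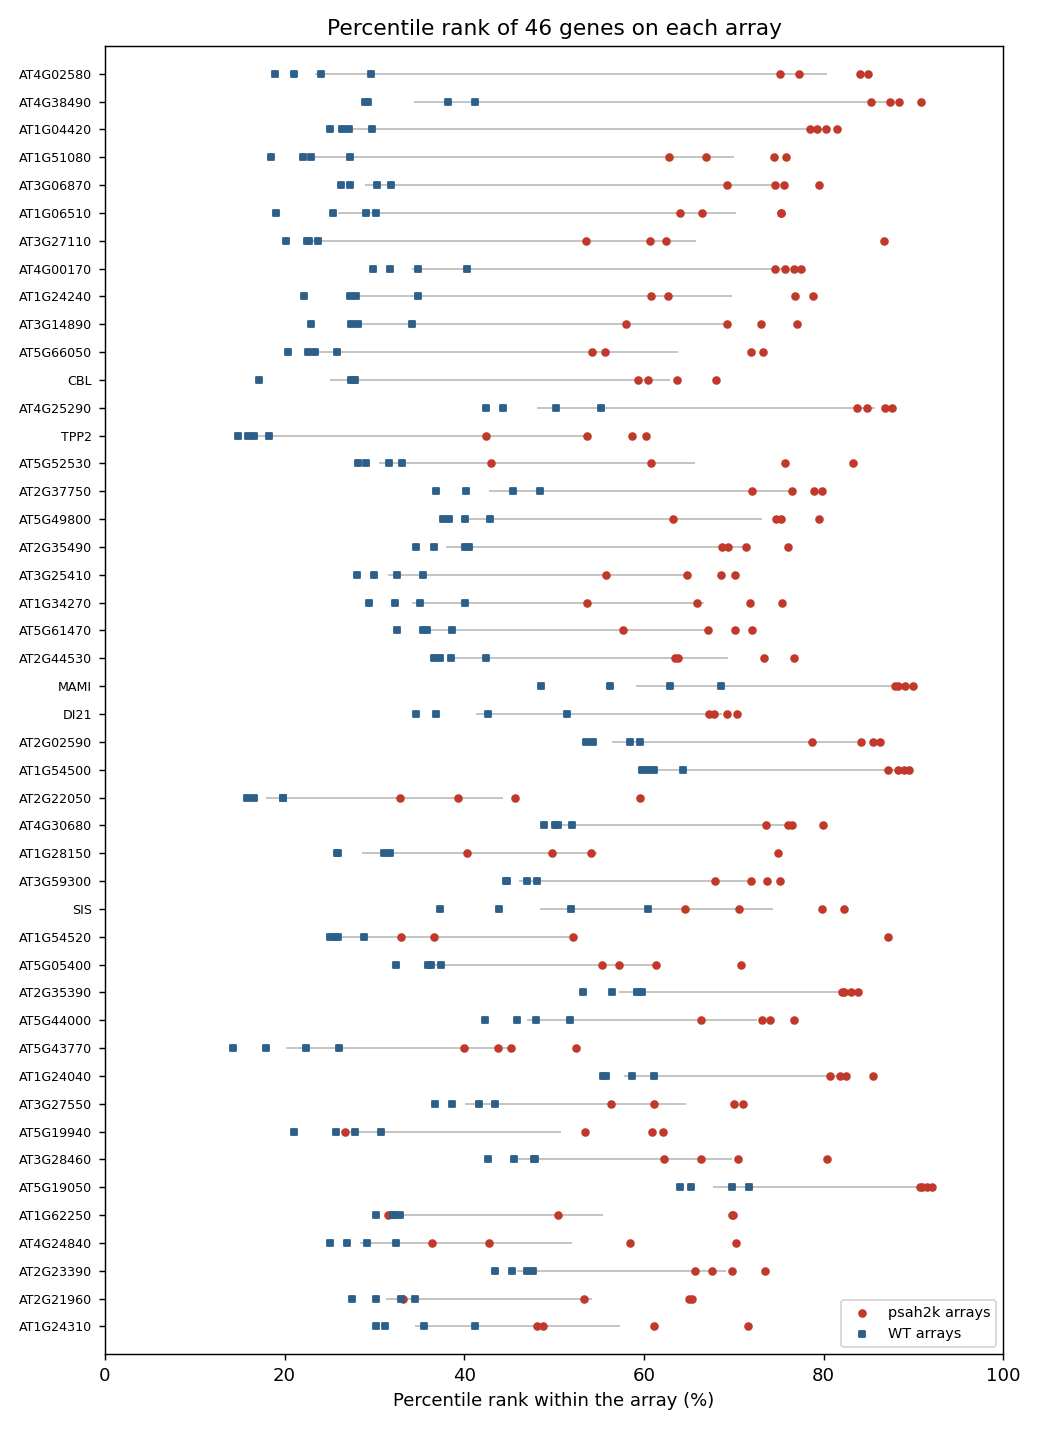
Percentile rank within the array (horizontal axis, %) of the 46 genes on the 4 psah2k arrays (circles) and the 4 WT arrays (squares), in order of the rise; grey lines join the genotype means. Rises run between 56.9 percentile points for AT4G02580 and 22.9 for AT1G24310, and the psah2k arrays of AT5G19940, AT1G62250 and AT2G21960 reach into the WT range.

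On the deposited scale the same genes divided. The mean intensity was higher in psah2k for 15 genes and lower for 31, while 13.2% of all tested features had a higher mean in psah2k. For 6 genes every psah2k array was above every WT array, against 7.18% of tested features. For 15 genes every psah2k array was below every WT array, against 72.6% of tested features, and for the other 25 the genotypes overlapped. The ratio of psah2k over WT mean intensity had a median of 0.752 over the 46 genes, with a range of 0.405 to 2.81, beside 0.309 over tested features. For most of the 46, then, a higher rank in psah2k went with a deposited signal that was lower than in WT or overlapped with it. Each array was then divided by the median of its values above 0. Every psah2k array was above every WT array for 34 genes, against 33.4% of tested features. After division by the upper quartile of the same values this held for 21 genes, against 23.5%.

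**Figure D3:**
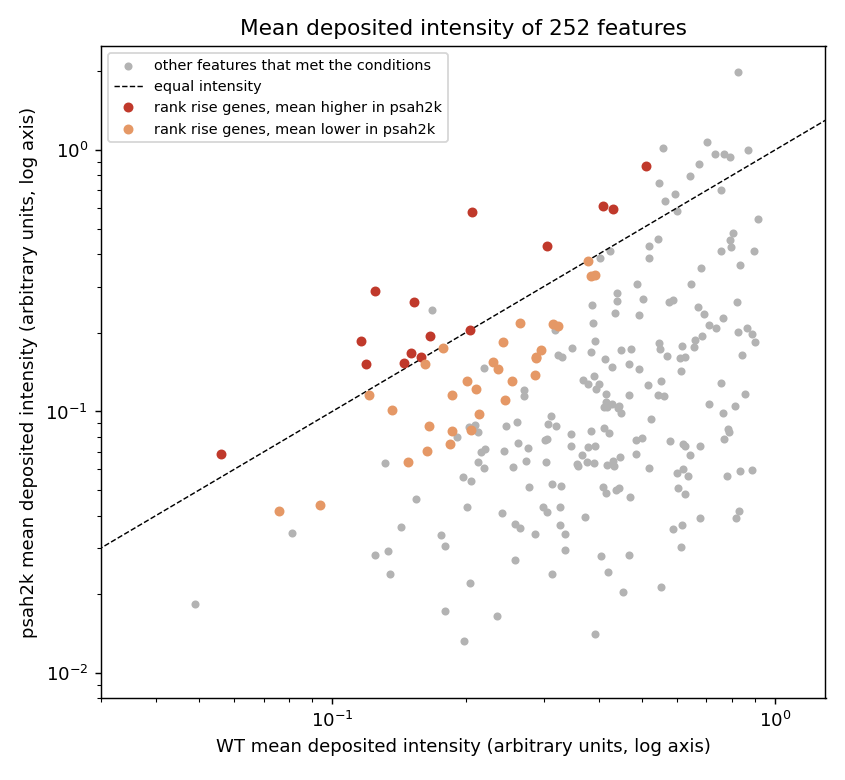
Mean deposited intensity in psah2k (vertical axis) against WT (horizontal axis), arbitrary units on log axes, for the 252 features that met the detection and percentile conditions. The dashed line marks equal intensity; 15 of the 46 rank-rise genes lie above it (dark points) and 31 below it (light points).

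Whether a gene of this set was called higher depended on the scaling of the arrays. With limma after quantile normalization of the log2 intensities, 40 of the 46 passed an adjusted p of 0.05 as higher in psah2k, against 26.3% of tested features, and 0 as lower, against 26.6%. On the intensities as deposited, 7 passed as higher, against 7.31% of tested features, and 15 as lower, against 73.0%. The 7 were AT4G02580, AT4G38490, AT1G04420, AT4G25290, MAMI, AT1G54500 and AT5G19050. After centring each array on its median 35 passed as higher, against 34.7% of tested features, and after centring on the upper quartile 24 did, against 24.1%. The same 7 passed as higher under all 4 scalings, as did 5.95% of tested features. The rule used this contrast, so these counts describe the genes and support nothing. The median log2 fold change of the 46 was 1.45 after quantile normalization, beside −0.12 over tested features, and −0.54 as deposited, beside −1.77.

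The function groups here and below were formed after the values were seen, so their counts are not compared with each other. Among genes of electron transfer and redox chemistry, 3 of 4 had a higher mean intensity in psah2k. AT4G02580 codes for part of mitochondrial complex I, the enzyme that oxidises NADH in the respiratory chain. Its rise of 56.9 percentile points was the largest of the set. It stood at the percentiles 84.1, 77.3, 85 and 75.1 on psah2k arrays 1 to 4 and at 29.6, 21.1, 24.1 and 19.0 on WT arrays 1 to 4. Its intensities were 0.381, 0.234, 0.357 and 0.183 in psah2k, against 0.182, 0.110, 0.123 and 0.0837 in WT. The genotypes did not overlap, but the lowest psah2k and the highest WT value nearly touched on the deposited scale. Of 29 listed complex I genes, 2 had a feature of their own and both were tested. The other, AT5G47890, was at the percentiles 49.7 ± 18.0 in psah2k and 43.8 ± 6.54 in WT (SD, n = 4 each) and was not called.

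AT1G04420, a gene of the aldo-keto reductase family, which reduces carbonyl groups with NADPH or NADH, was the steadiest of the large rises. Its percentiles were 78.5, 79.3, 80.2 and 81.5 in psah2k and 25.0, 26.4, 29.7 and 27.2 in WT. Intensities of 0.243, 0.272, 0.259 and 0.280 in psah2k faced 0.142, 0.157, 0.163 and 0.148 in WT, a ratio of the means of 1.72. The arrays of each genotype lay close together and far from the other genotype. Of 10 listed aldo-keto reductase genes, 2 had a feature of their own. The other, AT2G27680, had a mean rise of 17.5 percentile points with a psah2k spread of 19.2 (SD, n = 4) and was not called.

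AT1G54500 encodes a rubredoxin-like iron protein of the thylakoid membrane with a role in photosystem II assembly. It was among the brighter genes of the set, at 0.699, 0.641, 0.563 and 0.467 in psah2k and 0.436, 0.483, 0.395 and 0.406 in WT. Only psah2k 4 fell within the WT range. Its percentiles were 88.5 ± 1.0 in psah2k and 61.4 ± 1.99 in WT (SD, n = 4 each). AT5G44000, from the glutathione S-transferase family, which joins glutathione to reactive compounds, went the other way in intensity. Its deposited values were 0.183, 0.224, 0.161 and 0.118 in psah2k, all below the 0.273, 0.300, 0.318 and 0.291 of WT, while its mean percentile was 72.6 in psah2k and 47.0 in WT.

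Both peptidase genes of the set had a higher mean intensity in psah2k, with overlap. TPP2 encodes tripeptidyl peptidase II, a large serine protease that trims peptides released by the proteasome. It was dim everywhere, with 0.0639, 0.0818, 0.0388 and 0.0910 in psah2k and 0.0516, 0.0864, 0.0301 and 0.0563 in WT. The intensities of the genotypes overlapped over most of their range, yet the percentiles, 53.7 ± 8.05 in psah2k and 16.4 ± 1.45 in WT (SD, n = 4 each), did not. AT3G27110 encodes a metallopeptidase of the M48 family. Its intensity was 0.497 on psah2k 1 and 0.0629, 0.0869 and 0.0995 on the other psah2k arrays, against 0.127, 0.126, 0.119 and 0.0932 in WT. Without psah2k 1 the ratio of the means was 0.716 instead of 1.61, and the rise was 36.6 instead of 43.6 percentile points. The list of plastid proteases, which also held TPP2, had 23 genes. Features of 1 gene covered only these 2 of them. Both were called higher after quantile normalization, as were 26.3% of tested features, but neither was called as deposited. Their rank rise chose them, so nothing is read from the calls.

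Of 8 genes in metabolism, transport and plastid lipid bodies, 1 had a higher mean intensity in psah2k and 7 a lower one. The exception, AT5G19050, a gene of the alpha/beta hydrolase superfamily, was the brightest of the 46. It measured 1.04, 0.907, 0.777 and 0.736 in psah2k and 0.557, 0.599, 0.452 and 0.438 in WT. The genotypes stood clearly apart, at the percentiles 91.3 ± 0.607 in psah2k and 67.7 ± 3.63 in WT (SD, n = 4 each). CBL encodes cystathionine beta-lyase, the plastid enzyme that makes homocysteine on the way to methionine. Its percentiles were 60.4, 68.0, 59.4 and 63.7 in psah2k and 27.8, 17.2, 27.4 and 27.9 in WT, while its intensities of 0.0874, 0.131, 0.0817 and 0.104 in psah2k overlapped with 0.167, 0.0754, 0.148 and 0.154 in WT. WT 2 was the low one.

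A pair of genes for ribose-phosphate diphosphokinases, which make the phosphoribosyl pyrophosphate used for nucleotide, histidine and tryptophan synthesis, was in the set. AT2G35390 had 0.370, 0.343, 0.294 and 0.314 in psah2k and 0.363, 0.393, 0.387 and 0.391 in WT. AT2G44530 had 0.101, 0.176, 0.202 and 0.103 in psah2k, all below the 0.235, 0.247, 0.249 and 0.216 of WT. Their rises in percentile were 25.6 and 30.6 points. The percentile of AT2G35390 was among the most even of the set in psah2k, at 82.8 ± 0.785, against 57.2 ± 2.99 in WT (SD, n = 4 each). Of 5 genes of this family, a list drawn up after the members were known, these 2 had a feature of their own.

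Fibrillins are proteins that coat plastoglobules, the lipid droplets of plastids, or lie on thylakoids and in the stroma. AT2G35490 had percentiles of 71.4 ± 3.31 in psah2k and 37.9 ± 2.85 in WT (SD, n = 4 each), with mean intensities of 0.155 and 0.231. AT5G19940 had 0.0629, 0.0911, 0.0930 and 0.0103 in psah2k, against 0.189, 0.153, 0.151 and 0.10 in WT. On psah2k 4 its percentile of 26.7 lay among the WT values of 21.0 to 30.7. Of 13 fibrillin genes, a list also drawn up after the members were known, 5 had a feature of their own, and the other 3 had rises of 8.28 (AT5G09820), −0.25 (AT1G51110) and −5.99 (AT2G46910) percentile points. After quantile normalization 1 of the 5, AT2G35490, was called higher and 0 were called lower, beside 26.3% and 26.6% of tested features. As deposited, limma called AT2G35490 lower, with a log2 fold change of −0.60 (adjusted p = 0.0232).

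AT1G24040 encodes an acetyltransferase of the GNAT family, of which several plastid members acetylate protein N termini and lysines. It was at 0.336, 0.340, 0.265 and 0.392 in psah2k and at 0.384, 0.417, 0.411 and 0.354 in WT, which overlapped. Its percentiles of 82.6 ± 2.03 in psah2k and 57.8 ± 2.68 in WT did not (SD, n = 4 each). Of the 8 listed GNAT genes 2 had a feature of their own, and both were called higher after quantile normalization, as were 26.3% of tested features. AT1G24040 was not called as deposited, where its ratio of mean intensities was 0.852. The other gene, AT2G39000, had a rise of 34.2 percentile points with a psah2k spread of 25.5 (SD, n = 4). It is no member, since it was listed at 0 on psah2k 1, a value that the fit treated as missing. AT3G25410 belongs to the BASS family of plastid envelope carriers for organic acids. It had a rise of 33.3 percentile points, and all its psah2k intensities (0.134, 0.146, 0.105 and 0.0760) were below those of WT (0.201, 0.224, 0.153 and 0.168).

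Among 5 genes placed under handling of nucleic acids and translation, 1 had a mean intensity above WT and 4 below. AT1G24240 encodes a protein of the ribosomal L19 family. It had percentiles of 60.8, 76.9, 62.7 and 78.8 in psah2k and 22.1, 28.0, 27.3 and 34.8 in WT. Its mean intensities were nearly equal, 0.161 ± 0.0789 in psah2k and 0.159 ± 0.0334 in WT (SD, n = 4 each). A second feature, shared by AT1G24240 and other genes (3 in all), had a rise of 33.0 percentile points, with 0.0956 ± 0.0321 in psah2k and 0.161 ± 0.0169 in WT. AT3G14890, a DNA 3' phosphatase gene of strand break repair, had 0.139, 0.231, 0.0774 and 0.161 in psah2k, overlapping with 0.164, 0.213, 0.153 and 0.117 in WT, and a rise of 41.2 percentile points.

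Dimmer on every psah2k array than on any WT array, as were 72.6% of tested features, were the other 3 genes of this kind. They were AT5G61470 for a zinc finger protein of the C2H2 type (mean intensity 0.122 in psah2k and 0.212 in WT), AT3G27550 for a protein with a CRM domain, an RNA-binding domain of organelle splicing factors (0.111 and 0.246), and AT1G24310 for the nucleoporin NUP54 (0.0846 and 0.206). Their rises in percentile were 31.2, 24.6 and 22.9 points. In membrane traffic, AT4G00170 encodes a protein of the VAP family, which tethers the endoplasmic reticulum to other membranes. Its intensities overlapped, at 0.214, 0.237, 0.192 and 0.177 in psah2k and 0.221, 0.182, 0.235 and 0.179 in WT. Its percentile was nevertheless 76.1 ± 1.27 in psah2k and 34.2 ± 4.58 in WT (SD, n = 4 each), close to what an intensity of 0.2 gives on each set of arrays. The part of the whole-array shift in this rise was not tested. AT4G24840, a subunit of the COG tethering complex of the Golgi, had 0.0333, 0.0812, 0.0261 and 0.141 in psah2k, below the 0.179, 0.150, 0.179 and 0.147 of WT, and a rise of 23.6 percentile points.

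Genes placed under stress or defence, by name or by family, were 4, and 1 of them had a higher mean intensity in psah2k. MAMI, named as a membrane-associated mannitol-induced gene, measured 0.566, 0.644, 0.568 and 0.656 in psah2k and 0.321, 0.391, 0.498 and 0.424 in WT. No arrays overlapped, and its percentile was 88.8 ± 0.912 in psah2k and 59.1 ± 8.62 in WT (SD, n = 4 each). DI21, a drought-induced gene, had a lower and very even signal in psah2k, 0.130 ± 0.00476, against 0.255 ± 0.0417 in WT (SD, n = 4 each), with a rise of 27.3 percentile points. SIS, a salt-induced serine-rich gene, had 0.270, 0.348, 0.136 and 0.107 in psah2k and 0.435, 0.353, 0.213 and 0.261 in WT. In both genotypes arrays 1 and 2 were brighter than 3 and 4. AT5G05400, a gene of the NB-ARC and leucine-rich repeat class of immune receptors, had mean intensities of 0.0980 in psah2k and 0.215 in WT.

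The other 21 genes were placed in none of these groups, which does not mean that they lack a known role or could not be placed in one. Of them, 6 had a higher mean intensity in psah2k and 15 a lower one, and their rises ran between 23.0 and 53.6 percentile points. AT4G38490 had the largest ratio of mean intensities of the 46, 2.81. Its values were 0.846, 0.574, 0.364 and 0.535 in psah2k and 0.179, 0.268, 0.158 and 0.221 in WT, with percentiles of 90.9, 87.4, 85.2 and 88.4 in psah2k and 29.3, 41.2, 28.9 and 38.2 in WT. All psah2k arrays were above all WT arrays, with psah2k 1 the brightest. AT4G25290 was also apart, at 0.403, 0.396, 0.433 and 0.490 in psah2k and 0.274, 0.290, 0.305 and 0.350 in WT.

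The next of the largest rises belonged to genes with similar intensities in both genotypes. AT1G51080 had percentiles of 74.5, 75.9, 66.9 and 62.8 in psah2k and 22.0, 27.3, 18.5 and 22.9 in WT, with mean intensities of 0.152 ± 0.0530 and 0.119 ± 0.0337 (SD, n = 4 each). AT3G06870 had percentiles of 75.6, 79.5, 69.2 and 74.6 in psah2k and 27.2, 26.3, 30.3 and 31.9 in WT, with mean intensities of 0.194 ± 0.0612 and 0.167 ± 0.00928. Their percentiles did not overlap, whereas their intensities did. AT1G06510, at 0.153 ± 0.0521 in psah2k and 0.145 ± 0.0463 in WT, and AT5G66050, at 0.115 ± 0.0546 and 0.121 ± 0.0146 (SD, n = 4 each), were alike in this, with rises of 44.3 and 40.7 percentile points. AT2G02590 was one of the brighter genes, with 0.472, 0.464, 0.339 and 0.232 in psah2k and 0.427, 0.415, 0.343 and 0.330 in WT. Its means of 0.377 and 0.379 barely differed, and its rise was 27.2 percentile points.

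At the other end, the ratio of psah2k over WT mean intensity was lowest for AT2G21960 (0.405), AT1G24310 (0.410), AT4G24840 (0.431) and AT5G19940 (0.433). AT2G21960 had 0.0116, 0.113, 0.107 and 0.0683 in psah2k and 0.206, 0.217, 0.167 and 0.150 in WT. AT1G24310 had 0.0908, 0.0477, 0.0513 and 0.148 in psah2k and 0.187, 0.225, 0.173 and 0.241 in WT. For these genes, as for 72.6% of tested features, no psah2k intensity reached the lowest WT intensity. The mean percentile of these genes was nevertheless higher in psah2k. Ratios under 0.5 were found for 9 of the 46 genes and ratios over 2 for 2 of them, AT4G38490 and AT4G02580. The median ratio over tested features was 0.309.

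**Figure D4:**
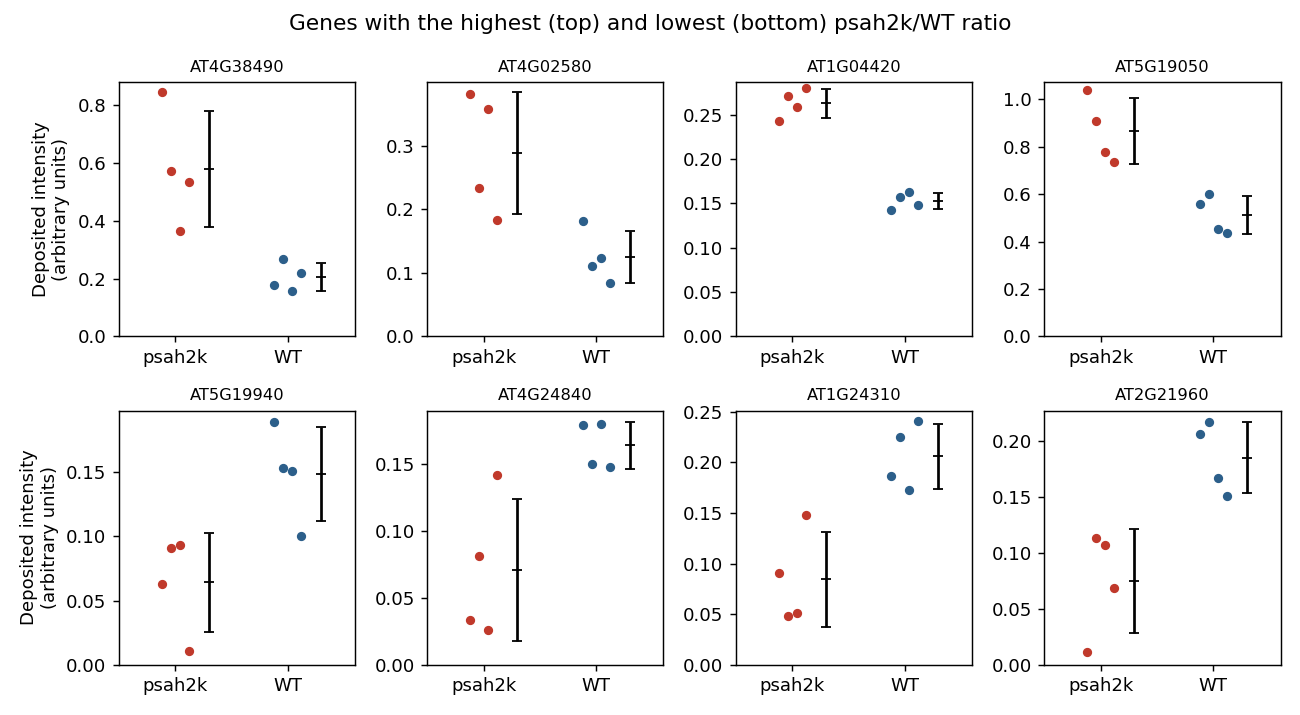
Deposited intensity (vertical axes, arbitrary units, each starting at 0) on the 4 psah2k and 4 WT arrays for the 4 genes with the highest ratio of psah2k over WT mean intensity (top) and the 4 with the lowest (bottom); bars show mean ± SD. In the top row all psah2k arrays lie above all WT arrays, and in the bottom row all lie below.

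Size of rise and ratio of intensities measure the same contrast on the same values, so a positive link was largely built in. Over the 46 genes Spearman's rank correlation between the rise and the ratio of mean intensities was 0.73, a description across genes that share the same 8 arrays and were chosen by the rise. Of the 23 genes with the larger rises 12 had a higher mean intensity in psah2k, with a median ratio of 1.0, and of the 23 with the smaller rises 3 did, with a median ratio of 0.549.

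For most of these genes the percentile varied more among the psah2k arrays than among the WT arrays. The SD of the percentile over 4 arrays had a median of 6.31 in psah2k and 3.06 in WT, and it was larger in psah2k for 33 of the 46 genes. Over the 252 features that met the conditions these medians were 7.40 and 3.0. An SD over 10 percentile points was found for 11 genes in psah2k and for 1 in WT, SIS. AT1G54520, a gene for a chloroplast membrane protein of acclimation to fluctuating light, varied most, with 0.0592, 0.560, 0.0263 and 0.0230 in psah2k and 0.176, 0.150, 0.140 and 0.137 in WT. Its mean was higher in psah2k through psah2k 2 alone. Without that array the ratio of the means was 0.240 instead of 1.11 and the rise 14.2 instead of 25.9 percentile points.

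Arrays 1 and 2 gave larger rises than arrays 3 and 4 for 33 of the 46 genes, with medians of 32.7 and 28.3 percentile points. All 46 rises were above 0 in both pairs. Nothing is read from that, since both pairs went into the choice of the genes. AT5G52530 differed much between the pairs, with 0.359 and 0.206 on psah2k 1 and 2 and 0.0395 and 0.0937 on psah2k 3 and 4, against 0.170 to 0.189 in WT. Its rise was 50.9 with arrays 1 and 2 and 19.5 with arrays 3 and 4. AT1G28150 likewise had 35.7 and 16.5 percentile points, while AT2G21960 (15.4 and 30.5) and AT2G22050 (19.5 and 33.3) were the other way round. AT4G02580, AT4G38490 and AT1G04420 had rises of 52.4 percentile points or more in both pairs.

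**Figure D5:**
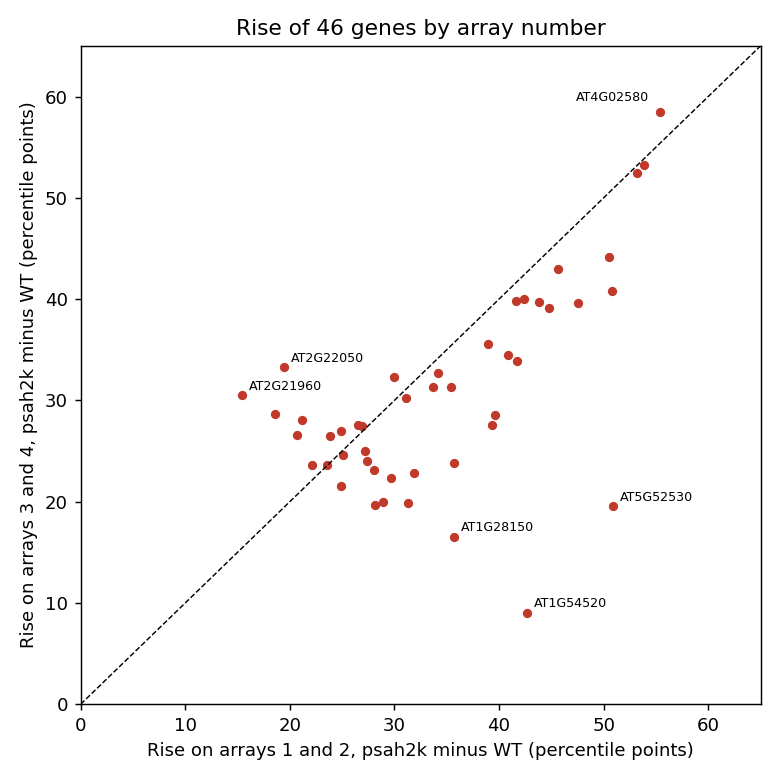
Rise of each of the 46 genes, psah2k minus WT in percentile points, on arrays 1 and 2 (horizontal axis) and on arrays 3 and 4 (vertical axis), with a dashed line of equality. Points below the line (33 genes) had the larger rise on arrays 1 and 2; AT1G54520 had 42.7 there and 9.03 on arrays 3 and 4.

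The limit of the set lay in a dense stretch of the order. The members just inside were AT2G23390, AT2G21960 and AT1G24310, with rises of 23.3, 23.0 and 22.9 percentile points. Just outside were AT2G29180, AT4G27390 and LpxA, with 22.8, 22.7 and 22.2. In all, 63 features with 1 gene had a rise at or above that of AT1G24310, and 13 of them missed the condition of a signal above 0 on the required arrays. The limit on the WT percentile removed 0 of them.

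The 46 genes were spread over chromosomes 1 to 5. By their locus tags 11 lie on chromosome 1, 8 each on chromosomes 2, 3 and 4 and 11 on chromosome 5, beside 58, 51, 45, 47 and 51 of the 252 features that met the conditions. AT1G54500 and AT1G54520 are separated by 1 protein-coding gene in the RefSeq order. AT1G54500 was steady over the psah2k arrays and AT1G54520 was not. Also within 10 places of each other in that order were AT1G24240 and AT1G24310, with 9 genes between them. So were AT2G21960 and AT2G22050, and AT2G35390 and AT2G35490, each with 7 genes between.

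Besides that of AT1G24240, 4 features are assigned to a member together with other genes. Their rises were 14.7 percentile points for the feature with AT2G22050, 7.28 for that with AT2G35490, 3.60 for that with AT2G21960 and −14.1 for that with SIS. Each was thus below the rise of the member's own feature, and which of the genes gave the signal of a shared feature cannot be told apart. Of the function lists, plastid iron-sulphur assembly (12 genes) and root and non-green plastid markers (7 genes) had 0 features of their own on the array. That of fatty acid and lipid synthesis (21 genes) had 2, FATB and AT4G24160. Both were called higher after quantile normalization, as were 26.3% of tested features, with the values of 0 treated as missing. Neither is a member, each being at 0 on a psah2k array. Every psah2k intensity of FATB (0.0526 or less) was below every WT intensity (0.0743 or more). AT4G24160 had 0.565 on psah2k 2 and at most 0.0570 on the other psah2k arrays, against 0.0647 to 0.133 in WT.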

How the data were processed

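The deposited table gives the authors' processed intensity of each feature on a linear scale between 0 and a ceiling of 100. The sources used here do not say how the authors corrected background or scaled the arrays. The labels gave genotype and number. Of 1562 annotated features, 692 had 1 gene and 870 several. Through gene identifiers, 690 of the 692 names were matched to RefSeq names of TAIR10.1. RefSeq coordinates served only to put protein-coding genes in order and count those between members.

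Percentile ranks were computed over all 3439 features of an array. For limma 3.58.1 (lmFit and eBayes, R 4.3.3), values of 0 were missing. Since array medians of log2 intensity spanned 2.14, arrays were quantile normalized. The fit covered the 2353 features above 0 on 3 or more arrays of each genotype, two-sided, with Benjamini-Hochberg adjustment at 0.05. Only the fit was tested on simulated data, which did not cover the scaling of the arrays on which the calls depend. The spread behind a p-value is that between these arrays and may be technical, and the number of arrays limits the precision. Genes, lists and groups were chosen with earlier results of these data known. Genes were named if they had one of the 12 largest rises, the 8 brightest psah2k means or the 4 highest or lowest intensity ratios, lay at the limit of the set, or were on a list. Genes were placed in function groups, and all other names chosen, after their values were seen. Alternatives covered the ranking rule, the scaling, values of 0, the variance model, array numbers and each array left out. Figures used matplotlib 3.10.9.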

Additional observations from a re-analysis of the deposited data

Results flagged for a closer look

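In 184 groups of 4 arrays (46 genes, percentile and deposited intensity, each genotype), 3 values stood far from the other arrays of their genotype by Dixon's criterion. Chance gives about 1 in 20 groups. The deposited intensity of AT3G27110 on psah2k 1 was 0.497, against 0.0629 to 0.0995 on the other psah2k arrays. That of AT1G54520 on psah2k 2 was 0.560, against 0.0230 to 0.0592 on the others. The percentile of CBL on WT 2 was 17.2, against 27.4 to 27.9 on the other WT arrays. The cause of these values was not tested.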

How the results depend on the processing

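With an array left out, 39 to 44 of the 46 genes were chosen again and their median rise was 28.4 to 31.6 percentile points. Of the 46, 12 to 19 then had a higher mean intensity in psah2k and 6 to 7 had every psah2k array above every WT array. For neither count is the share of tested features with an array left out given here, so neither is read further. The shares given above were for all arrays and do not apply to these counts. Between 36 and 42 of the 46 were called higher with an array left out. Nothing is read from that count, since the rule used the same contrast. The shares of tested features called in these fits are not given here. With numbers 1 and 2 only the rule chose 35 of the 46 again and the median rise was 32.7. With numbers 3 and 4 only it chose 32. Dropping the 11 named genes before taking 50 added AT2G29180, AT4G27390, AT5G40140 and LpxA and removed 0. The 506 recomputed rises of single genes were all above 0. Large rises on these same arrays chose the genes, so this was close to fixed in advance. Leaving out 1 array turned the direction of the deposited difference for 9 genes. Besides AT3G27110 and AT1G54520, these were AT1G06510, AT4G00170, AT1G24240, AT3G14890, AT5G66050, AT5G52530 and AT2G02590.

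The scaling changed most. Genes with every psah2k array above every WT array were 6 as deposited, 34 after division by the array median, 21 by the upper quartile and 43 by percentile, beside 7.18%, 33.4%, 23.5% and 31.2% of tested features. Called higher by limma were 7 as deposited and 24 after upper quartile centring, beside 7.31% and 24.1% of tested features. After quantile normalization 40 were called and after median centring 35, beside 26.3% and 34.7%. With numbers 1-2 and 3-4 averaged first, 30 were called. The share of tested features called in that fit is not given here. By the labels, same-numbered samples had only a number in common. Their deviations from the genotype means correlated at 0.0561 to 0.126, each sample best with its own number. For samples of different numbers the correlations were −0.0991 to 0.0371. What same-numbered samples may have shared is not given and was not tested. With the replicate number as a block 38 were called and the median rise was 28.5. For that fit, too, the share of tested features is not given. The rule used the same contrast, so nothing is read from any of these counts of called genes. Values near 0 on the psah2k arrays limit what intensities of the dimmest genes can show.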
